A study of Mus musculus with 20 samples.

Results

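The transcription factor p53 and the inhibitors that stop the cell cycle in G1 were followed in mouse pancreatic islets after deletion of the mitofusins, the outer membrane GTPases that fuse mitochondria. The set holds 10 genes, chosen with earlier results of these data known. It has Trp53, which encodes p53, and the cyclin-dependent kinase (CDK) inhibitor genes Cdkn1a, Cdkn1b, Cdkn2a and Cdkn2b. The others are the p53 target genes Mdm2, Ccng1, Trp53inp1, Zmat3 and Phlda3. Cdkn1a is itself a p53 target. All 10 were found among the 28632 genes of the count table, and each was measured in all 20 libraries. A library holds the RNA of the islets labelled as 1 sample of 12-week-old mice on a C57BL/6N background, of either sex, after 24 hours in culture.

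The 4 genotypes were Ctrl (n = 6, labelled wild type, and in the methods of the study littermates that carried Ins1-Cre alone or floxed alleles alone), β-Mfn1KO (n = 4, Ins1-Cre with both Mfn1 alleles floxed), β-Mfn2KO (n = 5, Ins1-Cre with both Mfn2 alleles floxed) and β-Mfn1/2DKO (n = 5, Ins1-Cre with both alleles of Mfn1 and of Mfn2 floxed). Ins1-Cre acts in β-cells, so the other islet cells kept their mitofusin genes. The RNA came from whole islets, and fewer cells of a type and less RNA per cell cannot be told apart in these counts.

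In most cells p53 protein is held low by Mdm2, a ubiquitin ligase that p53 itself induces, so the pair forms a feedback loop that acts largely on the protein and not on Trp53 RNA. After DNA damage or other stress p53 accumulates and induces genes for cell cycle arrest (Cdkn1a), for apoptosis and for its own restraint. Cdkn1a (p21) and Cdkn1b (p27) bind cyclin-CDK complexes. Cdkn2b (p15) and the p16 product of Cdkn2a bind Cdk4 and Cdk6, and the Arf product of Cdkn2a blocks Mdm2. The Cdkn2a locus is known for its part in the decline of β-cell proliferation with age.

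RefSeq promoter windows (GRCm38.p6, 250 bases before to 50 bases after a start, 300 bases in all) were at hand for 8 of the 10 genes, in 10 windows. Trp53inp1 and Zmat3 had none. The p53 half-site consensus, a palindrome that reads alike on both strands and is named here without its letters, was present in 4 member windows, and in 8.36% of the 32851 windows of all genes. The stretches of 60 bases that hold it are shown because Cdkn1a and Ccng1 varied together across libraries while Mdm2 followed them less closely (below), and capitals mark the half-sites.
Cdkn1a, upstream start, + strand, chr17:29090892-29090951: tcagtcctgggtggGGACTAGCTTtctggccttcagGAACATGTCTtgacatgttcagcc
Ccng1, - strand, chr11:40755437-40755496: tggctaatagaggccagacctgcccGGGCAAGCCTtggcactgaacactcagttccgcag
Mdm2, - strand, chr10:117710910-117710969: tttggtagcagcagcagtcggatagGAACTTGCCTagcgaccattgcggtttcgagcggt
Trp53, + strand, chr11:69580259-69580318: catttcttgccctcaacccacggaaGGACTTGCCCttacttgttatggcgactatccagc
In Cdkn1a the half-site that begins 51 bases before the start was followed directly by TGACATGTTC, which misses the consensus at 1 letter, and in Ccng1 the half-site was preceded directly by AGACCTGCCC, which also misses it at 1 letter. The windows of Phlda3, Cdkn1b, Cdkn2a and Cdkn2b, and the downstream window of Cdkn1a, did not hold the letters. Phlda3, whose window lacked the letters, varied with Ccng1 (r = 0.89) and Cdkn1a (0.86) about as closely as these did with each other (0.87). Sites outside the windows were not searched. A match is a description of these letters and not a bound site, and its relation to the levels was not tested.

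The libraries were first checked against their labels. Mfn1 lay between 621 and 770 normalized counts in β-Mfn1KO and between 687 and 1062 in β-Mfn1/2DKO, below the Ctrl range of 1518 to 1807, and Mfn2 lay between 1474 and 1688 in β-Mfn2KO and between 2022 and 2131 in β-Mfn1/2DKO, below the Ctrl range of 3089 to 4373. Normalized counts are the estimated counts per gene scaled by TMM to a common library size of 41.4 M counts. Library totals were 12.4 to 20.3 M in Ctrl, 15.7 to 16.7 M in β-Mfn1KO, 15.1 to 59.5 M in β-Mfn2KO and 65.5 to 122.9 M in β-Mfn1/2DKO, so that every β-Mfn1/2DKO library was deeper than every Ctrl library and depth and genotype cannot be told apart in that comparison. Libraries 4 and 5 of β-Mfn1/2DKO stood apart from the rest. The summed level of 16 acinar marker genes (digestive enzymes of the exocrine pancreas) was 19039 and 49996 CPM (counts scaled by library size) in them, against 519 to 867 in β-Mfn1/2DKO libraries 1 to 3, 334 to 2151 in Ctrl, 120 to 724 in β-Mfn1KO and 546 to 7930 in β-Mfn2KO, whose highest library was number 4. The same pair had the highest summed duct markers, 2399 and 3568 CPM against 980 to 1476 in the 18 other libraries. Of the 10 β-cell markers, all passed as lower in β-Mfn1/2DKO, and their summed level was 64748 to 87864 CPM there against 146280 to 233866 in Ctrl. All 8 endothelial markers passed as higher in β-Mfn1/2DKO, with 209 to 329 CPM summed against 145 to 219 in Ctrl.

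Between genes, levels were compared as CPM per kilobase of exon. In Ctrl islets the highest of the 10 was Ccng1 at 31.3 ± 2.64 CPM per kilobase (SD, n = 6), followed by Cdkn1b at 27.3 ± 1.89 and Cdkn1a at 25.1 ± 4.06. Mdm2 stood at 15.5 ± 1.05, Cdkn2b at 11.7 ± 0.838, Trp53inp1 at 9.91 ± 1.15 and Trp53 at 7.69 ± 0.722. Phlda3 at 5.96 ± 1.35, Zmat3 at 3.36 ± 0.667 and Cdkn2a at 0.768 ± 0.430 closed the order. The neighbours in this order whose ranges of mean ± SD overlapped were Ccng1 and Cdkn1b, Cdkn1b and Cdkn1a, Cdkn2b and Trp53inp1, and Trp53 and Phlda3. Cdkn2a was the member nearest to the detection limit, with 4 to 144 estimated counts in a library.

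**Figure D1:**
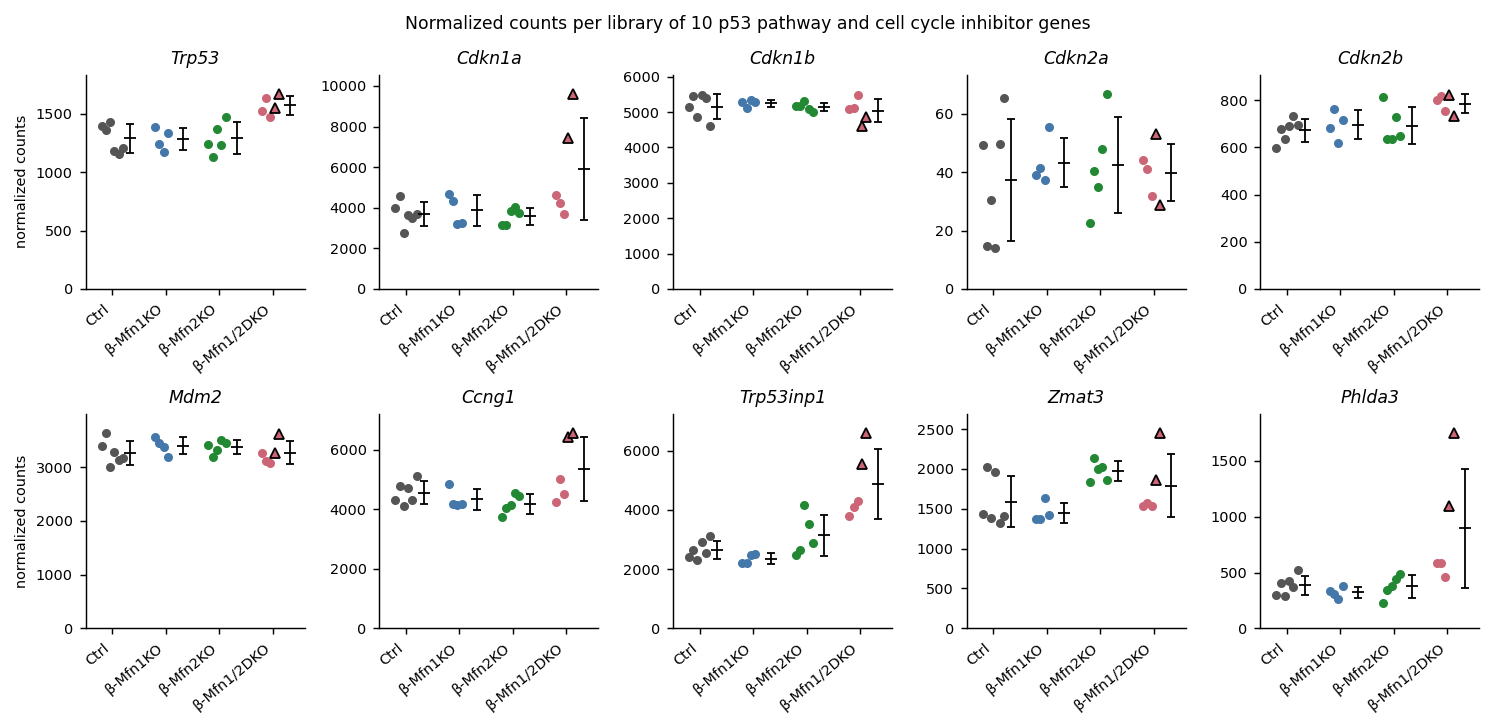
Normalized counts of the 10 genes in each of the 20 libraries, 1 panel per gene, with an axis that starts at 0 and a bar for the mean and SD of each genotype; triangles are β-Mfn1/2DKO libraries 4 and 5. Trp53inp1 and Trp53 lie higher in every β-Mfn1/2DKO library than in every Ctrl library, the triangles lead for Cdkn1a, Ccng1 and Phlda3, and Cdkn1b and Mdm2 stay within narrow bands.

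The first question was what loss of both mitofusins does to these genes. Compared with Ctrl, 5 of the 10 were higher in β-Mfn1/2DKO islets (edgeR quasi-likelihood test, Benjamini-Hochberg adjusted over all genes): Phlda3, Trp53inp1, Cdkn1a, Trp53 and Cdkn2b. None was lower. Of all genes tested, 9.59% were higher by the same rule and 6.86% were lower. These shares, and the other shares of all genes below, are over 28632 genes, of which 12274 reached a mean of 100 normalized counts. Of the 10 members 9 reached it, so the shares are not matched to the members or to the later lists in level. In a fit of the 15267 genes kept by a filter on low counts, 2838 were higher and 2531 lower. Whether a list exceeds genes of like level was not tested. Phlda3, Trp53inp1 and Cdkn1a also passed the fold threshold of the study, over 1.5-fold, as did 3.24% of all genes in that direction. The median log2 fold change of the 10 genes was 0.23, against 0.06 over all genes. When library totals replaced TMM as the scale, the split over all genes moved from 2745 higher and 1965 lower to 5393 higher and 949 lower, and 6 of the 10 genes were then higher.

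Trp53 itself read 1524, 1637, 1476, 1550 and 1668 normalized counts in the 5 β-Mfn1/2DKO libraries, against a lowest, median and highest value of 1154, 1283 and 1431 in Ctrl. The groups did not overlap, which held in the same direction for 6.56% of all genes. On the log2 scale the difference was small, 0.28 ± 0.07 (SE), and passed with an adjusted p of 0.0061. Within Ctrl, the 3 female libraries (1358 to 1431) lay above the 3 male ones (1154 to 1208). The female and male means were 1580 and 1565 in β-Mfn1/2DKO. They went the other way in β-Mfn2KO (1188 and 1360) and in β-Mfn1KO (1268 and 1333, the last from 1 male library).

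Trp53inp1, which encodes a stress-induced nuclear protein that promotes p53 activity and autophagy, read 3802, 4114, 4309, 5570 and 6592 in β-Mfn1/2DKO and 2313, 2598 and 3119 (lowest, median, highest) in Ctrl. Again no β-Mfn1/2DKO library fell within the Ctrl range, as for 6.56% of all genes in that direction. The log2 fold change was 0.88 ± 0.13 (adjusted p = 6.6e-05) and this was the smallest adjusted p of the 10. Phlda3, a pleckstrin homology domain protein that competes with Akt for membrane lipids and so restrains Akt signalling, read 589, 582, 463, 1099 and 1748 in β-Mfn1/2DKO and 292, 389 and 523 in Ctrl. Library 3 of β-Mfn1/2DKO lay within the Ctrl range, while libraries 4 and 5 were far above it. Its log2 fold change was 1.22 ± 0.27 (adjusted p = 0.0025), the greatest among the 10.

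Cdkn1a read 4633, 4211, 3699, 7413 and 9603 in β-Mfn1/2DKO, against 2759, 3661 and 4575 in Ctrl. Libraries 4 and 5 carried the separation, since libraries 2 and 3 lay within the Ctrl range and library 1 just above it. The fold change of 0.68 ± 0.19 on the log2 scale passed (adjusted p = 0.014), but not without library 5 (0.43, adjusted p = 0.074). Cdkn2b read 801, 819, 756, 823 and 731 in β-Mfn1/2DKO and 599, 684 and 734 in Ctrl, a log2 difference of 0.23 ± 0.07 (adjusted p = 0.037). Its call was lost when Ctrl library 1, 2, 3 or 4 or β-Mfn1/2DKO library 4 was left out, with an adjusted p of up to 0.093.

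The other 5 genes did not pass in this comparison. Ccng1, which encodes the p53-induced cyclin G1, read 4239, 5011, 4491, 6434 and 6544 in β-Mfn1/2DKO and 4100, 4511 and 5127 in Ctrl (log2 fold change 0.23 ± 0.10, adjusted p = 0.11). Only libraries 4 and 5 exceeded the Ctrl range. Zmat3, an RNA-binding zinc finger protein gene, read 1529, 1571, 1539, 1866 and 2446 (log2 fold change 0.17 ± 0.12, adjusted p = 0.41). Mdm2 read 3264, 3112, 3074, 3256 and 3612 against 2996, 3225 and 3628 in Ctrl, a log2 difference of -0.00 with a 95% interval from -0.11 to 0.11. Cdkn1b was likewise bounded closely, at 5082, 5116, 5493, 4615 and 4868 against 4601, 5262 and 5469, with an interval from -0.14 to 0.07. For Cdkn2a the 5 libraries read 44.3, 41.0, 31.8, 52.9 and 28.7 and Ctrl ran from 14 to 65.4, and the interval from -0.58 to 0.79 left changes of either sign within reach at this depth. The gene count of Cdkn2a adds the p16 and Arf transcripts, which it cannot separate.

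Because the pair of libraries with high acinar and duct signal was also the pair with the highest Phlda3, Cdkn1a, Ccng1 and Trp53inp1, every value was computed again without it. From β-Mfn1/2DKO libraries 1 to 3 alone, 2 of the 10 genes passed as higher, Trp53inp1 (log2 fold change 0.64 ± 0.12, adjusted p = 0.00081) and Trp53 (0.28 ± 0.08, adjusted p = 0.028), beside 7.36% of all genes. Phlda3 stood at 0.52 ± 0.18 (adjusted p = 0.072), Cdkn2b at 0.26 ± 0.08 (adjusted p = 0.052), Cdkn1a at 0.20 ± 0.13 (adjusted p = 0.39) and Ccng1 at 0.03 ± 0.08 (adjusted p = 0.87). Trp53 and Cdkn2b thus kept the size of their difference without the pair, while that of Phlda3 and Cdkn1a fell to under 1.5-fold. With the depth class of the library (over 40 M counts) as a term in the model, 0 of the 10 passed, beside 1.48% of all genes higher (edgeR; 1 at an unadjusted p under 0.05, Trp53inp1, at 0.83 ± 0.25 and adjusted p = 0.080). That depth term rested on β-Mfn2KO alone, where libraries 4 and 5 were deep and libraries 1 to 3 were not. Of these deep libraries, number 4 had 7930 CPM of summed acinar markers. Number 5 had 863 CPM of summed macrophage markers and 362 CPM of stromal markers. Depth and these signals cannot be told apart in the term, nor in the comparison of deep libraries alone (below). No library of Ctrl or β-Mfn1KO was deep and every β-Mfn1/2DKO library was, so the term does not separate depth from genotype. With every library drawn down to the smallest total Trp53, Trp53inp1, Phlda3 and Cdkn1a passed, beside 6.64% of all genes higher.

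**Figure D2:**
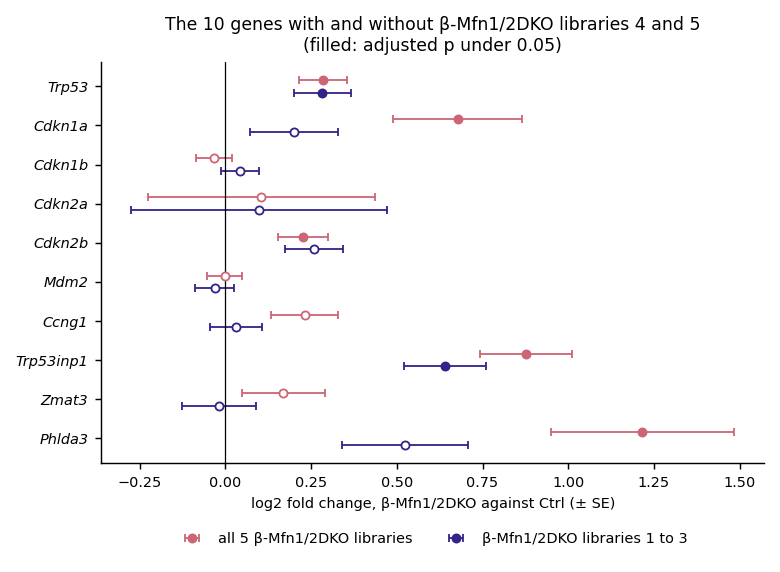
Log2 fold change of each gene in β-Mfn1/2DKO against Ctrl (points, with SE as bars) from all 5 β-Mfn1/2DKO libraries and from libraries 1 to 3; filled points have an adjusted p under 0.05. Without libraries 4 and 5 Trp53 stays at 0.28 and Trp53inp1 at 0.64, while Cdkn1a goes from 0.68 to 0.20 and Ccng1 from 0.23 to 0.03.

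β-Mfn2KO library 4, with 7930 CPM of summed acinar markers, read 4041 for Cdkn1a and 4533 for Ccng1, the highest values of its genotype and within the Ctrl range, and 440 for Phlda3, below only library 5 (491) in its genotype. Trp53inp1 read 3511 in that library, above the Ctrl maximum of 3119 and below β-Mfn2KO library 3 (4183). β-Mfn1/2DKO libraries 1 to 3 had acinar sums of 519 to 867 CPM, within the Ctrl range, and Trp53inp1 read 3802 to 4309 there, above its own Ctrl range. Phlda3 in libraries 1 and 2 (589 and 582) and Cdkn1a in library 1 (4633) were also above their Ctrl maxima of 523 and 4575. Of the 16 acinar markers, Amy2b, Ptf1a and Pla2g1b were at 0 in 8, 3 and 1 libraries, and the other 13 were detected in all 20. A fit with the acinar score as a covariate over the 20 libraries is reported below by its counts, and it does not isolate this pair. The part of the acinar and duct signal in the levels of Phlda3, Cdkn1a, Ccng1 and Trp53inp1 in β-Mfn1/2DKO libraries 4 and 5 was not tested.

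**Figure D3:**
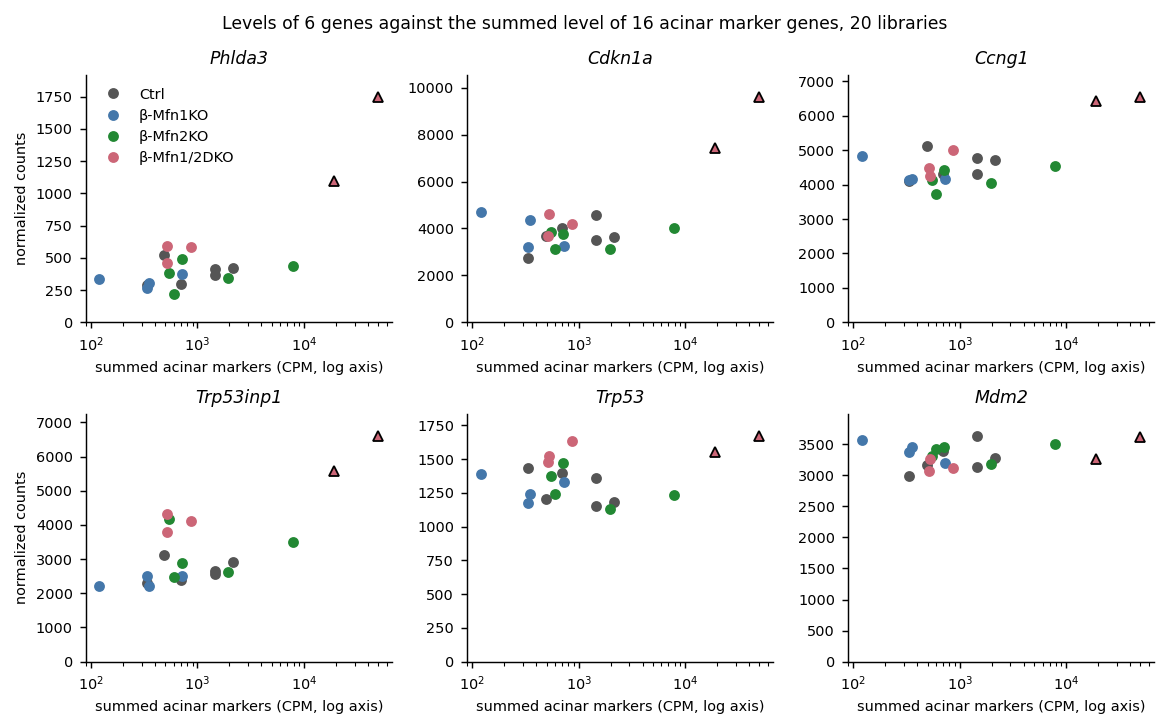
Normalized counts of 6 genes (vertical axis from 0) against the summed CPM of 16 acinar markers (log axis), 1 point per library, coloured by genotype; triangles are β-Mfn1/2DKO libraries 4 and 5. Phlda3, Cdkn1a, Ccng1 and Trp53inp1 are highest in the triangles, at 19039 and 49996 CPM. Of the 3 β-Mfn1/2DKO libraries at 519 to 867 CPM, all lie above the Ctrl points for Trp53inp1 and Trp53. Libraries 1 and 2 do so for Phlda3 and library 1 for Cdkn1a.

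The second question was whether loss of 1 mitofusin changes the same genes. In β-Mfn1KO against Ctrl 0 of the 10 genes passed in edgeR, 0 had an unadjusted p under 0.05 and DESeq2 called 0; of all genes 0.0279% passed. In β-Mfn2KO against Ctrl 0 passed in edgeR and in DESeq2, beside 0.0559% of all genes, and 1 gene, Zmat3, had an unadjusted p under 0.05 in edgeR. For Trp53inp1 the 4 β-Mfn1KO libraries read 2205, 2205, 2493 and 2517 and the 5 β-Mfn2KO libraries 2477, 2634, 4183, 3511 and 2893. Libraries 3 and 4 of β-Mfn2KO were above the Ctrl maximum of 3119, and the difference from Ctrl of 0.24 on the log2 scale had a 95% interval from -0.04 to 0.52. Phlda3 read 335, 308, 263 and 377 in β-Mfn1KO and 223, 346, 380, 440 and 491 in β-Mfn2KO, all below the Ctrl maximum of 523. Cdkn1a read 4701, 4350, 3206 and 3241 in β-Mfn1KO and 3131, 3134, 3860, 4041 and 3755 in β-Mfn2KO, and 1 of these libraries exceeded the Ctrl maximum of 4575. Trp53 ran from 1175 to 1387 in β-Mfn1KO and from 1132 to 1475 in β-Mfn2KO, with log2 differences from Ctrl of -0.01 (interval -0.17 to 0.15) and 0.00 (interval -0.14 to 0.15).

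The double deletion was then set against each single deletion. These comparisons use the same β-Mfn1/2DKO libraries as the one above and are not independent of it. Against β-Mfn2KO, 5 of the 10 genes were higher, beside 7.09% of all genes: Phlda3 by 1.23 ± 0.28 on the log2 scale (adjusted p = 0.0040), Cdkn1a by 0.72 ± 0.20 (adjusted p = 0.016), Trp53inp1 by 0.63 ± 0.14 (adjusted p = 0.0032), Ccng1 by 0.36 ± 0.10 (adjusted p = 0.021) and Trp53 by 0.28 ± 0.07 (adjusted p = 0.011). Against β-Mfn1KO, 4 were higher, beside 9.67% of all genes: Phlda3 by 1.48 ± 0.31 (adjusted p = 0.0015), Trp53inp1 by 1.05 ± 0.15 (adjusted p = 3.3e-05), Cdkn1a by 0.61 ± 0.21 (adjusted p = 0.049) and Trp53 by 0.29 ± 0.08 (adjusted p = 0.011). Without β-Mfn1/2DKO libraries 4 and 5, Trp53inp1 (0.39, adjusted p = 0.049) and Trp53 (0.27, adjusted p = 0.047) were the 2 genes still called against β-Mfn2KO, beside 5.59% of all genes, with Cdkn1a at 0.24 (adjusted p = 0.32). Against β-Mfn1KO the same fit called Trp53inp1 (0.82, adjusted p = 0.00017), Phlda3 (0.79, adjusted p = 0.011) and Trp53 (0.29, adjusted p = 0.035), beside 7.49% of all genes, with Cdkn1a at 0.14 (adjusted p = 0.64). The call of Cdkn1a against β-Mfn1KO was lost in 5 of 9 fits that left out 1 library, those without β-Mfn1KO library 2, 3 or 4 or β-Mfn1/2DKO library 4 or 5, and without the last it stood at 0.37 (adjusted p = 0.19). Against β-Mfn2KO the calls of Cdkn1a (0.48, adjusted p = 0.067) and Ccng1 (0.27, adjusted p = 0.074) were lost without β-Mfn1/2DKO library 5, and that of Ccng1 also without β-Mfn1/2DKO library 4 or β-Mfn2KO library 1 or 2. When the deep libraries of both groups were compared alone (2 of β-Mfn2KO and 5 of β-Mfn1/2DKO), 0 of the 10 passed in edgeR, beside 4.26% of all genes higher, with Trp53inp1 at 0.65 and Trp53 at 0.26 (adjusted p = 0.10 for each); 3 of the 10, these and Cdkn2b, had an unadjusted p under 0.05.

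Whether the effect of losing Mfn1 depended on Mfn2 was tested by the difference between 2 differences, β-Mfn1/2DKO minus β-Mfn2KO and β-Mfn1KO minus Ctrl. This term passed for 2 of the 10 genes, beside 2.88% of all genes in the same direction. For Phlda3 it was 1.49 ± 0.41 on the log2 scale (adjusted p = 0.033): loss of Mfn1 went with a change of -0.26 where Mfn2 was intact and of 1.23 where it was deleted. For Trp53inp1 it was 0.81 ± 0.20 (adjusted p = 0.018), from -0.17 and 0.63. Without β-Mfn1/2DKO libraries 4 and 5 the terms were 0.80 ± 0.26 (adjusted p = 0.10) and 0.57 ± 0.17 (adjusted p = 0.061), and 0 of the 10 passed in edgeR (4 at an unadjusted p under 0.05), beside 2.44% of all genes higher.

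Zmat3 had a pattern of its own. It read 1839, 2140, 2003, 2024 and 1856 in β-Mfn2KO, 1373, 1369, 1634 and 1422 in β-Mfn1KO, and in Ctrl either 2024 and 1964 (libraries 2 and 4) or 1326 to 1433 (the other 4 libraries). The β-Mfn2KO libraries therefore lay with Ctrl libraries 2 and 4, and the difference from Ctrl of 0.31 ± 0.12 on the log2 scale did not pass (adjusted p = 0.93). The gene lies on chromosome 3 at 32334792 to 32366014 (GRCm38), 163 kilobases from Mfn1. Within 500 kilobases of Mfn1 there were 11 genes whose mean reached 100 normalized counts, and in 7 of these, Zmat3 and Mfn1 among them, Ctrl libraries 2 and 4 were the highest of Ctrl. These 2 libraries were picked by the values of Zmat3, so its own place among the 7 was fixed. The share of all genes with the same 2 libraries highest is not given, so the count does not show a pattern local to Mfn1. Gm37459 and Actl6a are given as examples, singled out after their values were seen. Gm37459 read 410 and 302 in Ctrl libraries 2 and 4 and 119 to 189 in the other 4, 94.9 to 124 in β-Mfn1KO, 355 to 487 in β-Mfn2KO and 34.5 to 97.8 in β-Mfn1/2DKO. It was lower in β-Mfn1/2DKO than in Ctrl (log2 fold change -1.63 ± 0.26, adjusted p = 0.00012). Actl6a, a subunit of chromatin remodelling complexes, read 1921 and 1649 in Ctrl libraries 2 and 4, 1166 to 1462 in the rest of Ctrl and 1552 to 1848 in β-Mfn2KO. Its Ctrl values were graded and not in 2 clear groups. Pik3ca, between Zmat3 and Mfn1, ran from 1776 to 2423 in the 4 groups, and Ctrl libraries 2 and 4 were not its 2 highest in Ctrl. The labels do not say which floxed alleles, if any, each Ctrl mouse carried.

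**Figure D4:**
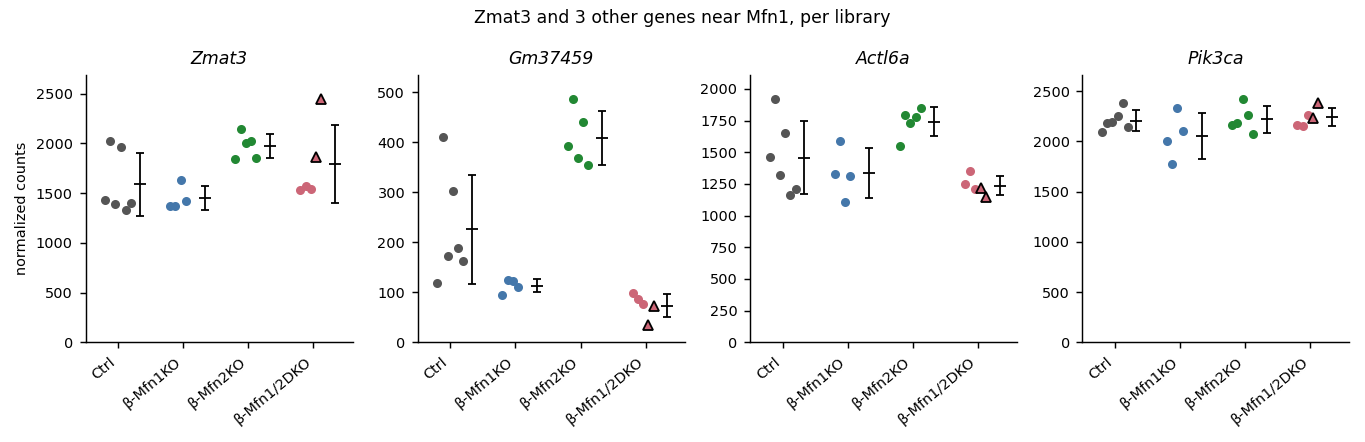
Normalized counts per library of Zmat3 and of 3 other genes within 500 kilobases of Mfn1, with mean and SD per genotype; axes start at 0 and triangles are β-Mfn1/2DKO libraries 4 and 5. In Zmat3 Ctrl libraries 2 and 4 lie with the β-Mfn2KO libraries. In Gm37459 and Actl6a the same 2 libraries are the highest of Ctrl, with a less clean division, and in Pik3ca they are not.

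Among the members, the levels that varied together over the 20 libraries (Pearson r of log2 CPM, as a description, over libraries that share genotype, depth and the high acinar pair) were those of Ccng1 and Phlda3 (r = 0.89), Trp53inp1 and Phlda3 (0.88), Cdkn1a and Ccng1 (0.87) and Cdkn1a and Phlda3 (0.86). Mdm2 had an r of 0.12 with Phlda3, 0.21 with Ccng1 and -0.01 with Trp53inp1, and 0.48 with Cdkn1a. Among the 12274 genes whose mean reached 100 normalized counts, the closest profile to Cdkn1a was that of Tnfrsf12a (0.94), followed by Ifrd1 and Tpm4. Phlda3 was closest to Tmco4 (0.95), Rhoc and Wwc2, Trp53inp1 to Mgat4b (0.95), Stbd1 and Serinc5, and Ccng1 to Supt4a (0.91), Dglucy and Tnfrsf10b. Trp53 was closest to Gpatch4 (0.90), Ctps and Pum3, Cdkn2b to Map1lc3a (0.82), Tmem246 and Zfp768, and Zmat3 to Myo1e (0.82), Wdr26 and Prkci. The likeness was weaker for Mdm2, with Nxn (0.76), Gclc and Zfp7, and for Cdkn1b, with Msi2 (0.74), A630052C17Rik and Amph.

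Other targets of p53 were then examined in a list of 33 genes. In β-Mfn1/2DKO against Ctrl, 12 of the 33 were higher, 3 were lower and 18 did not pass. Of all genes, 9.59% were higher and 6.86% lower. The median log2 fold change of the 33 was 0.22, against 0.06 over all genes. The greatest changes were in Sfn (14-3-3σ, a mediator of G2 arrest) at 2.06 ± 0.56 (adjusted p = 0.012), Eda2r (a receptor of the tumour necrosis factor family) at 1.31 ± 0.42 (adjusted p = 0.035), Perp (a membrane protein of apoptosis and cell adhesion) at 1.17 ± 0.31 (adjusted p = 0.011) and Sesn2 (a sestrin that restrains mTORC1) at 0.86 ± 0.08 (adjusted p = 9.1e-08). Sfn read 137, 133, 134, 892 and 1480 in β-Mfn1/2DKO and 65.4, 127 and 228 in Ctrl, so that only libraries 4 and 5 were above the Ctrl range. Eda2r read 68.3, 97.3, 87.5, 298 and 520 against 49.4, 82.7 and 116, and Perp 406, 410, 376, 936 and 1829 against 293, 355 and 415, with the same division (library 5 of the pair highest). In β-Mfn2KO library 4, the third library with a high acinar sum, Sfn read 376, Eda2r 127 and Perp 682, each above the Ctrl range. Sesn2 differed from these, at 12080, 12113, 12654, 11938 and 10499 in β-Mfn1/2DKO and 6063, 6426 and 7184 in Ctrl, with all 5 libraries above every Ctrl library. Such a separation held for 6.56% of all genes. Pmaip1 and Fas, which encode the BH3 protein Noxa and a death receptor, stood at 0.65 ± 0.30 and 0.65 ± 0.33 (adjusted p = 0.15 and 0.21). Tigar, a regulator of glycolysis singled out after its values were seen, fell by 0.52 ± 0.06 (adjusted p = 8.5e-07), with 1526, 1405, 1436, 1335 and 1199 against 1845, 2002 and 2114 in Ctrl.

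Without libraries 4 and 5 of β-Mfn1/2DKO, 6 of the 33 targets were higher and 2 lower, beside 7.36% and 3.89% of all genes, with a median of 0.08. Sesn2 (0.93 ± 0.08, adjusted p = 1.2e-07) and Gadd45a (0.35 ± 0.07, adjusted p = 0.0029), the latter named after its values were seen, were among those higher, and Tigar was lower (-0.42 ± 0.06, adjusted p = 2.2e-05). Sfn then stood at 0.05 ± 0.34, Eda2r at -0.01 ± 0.28 and Perp at 0.20 ± 0.15, and none of these passed. Against Ctrl the median of the 33 was -0.07 in β-Mfn1KO and 0.05 in β-Mfn2KO.

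**Figure D5:**
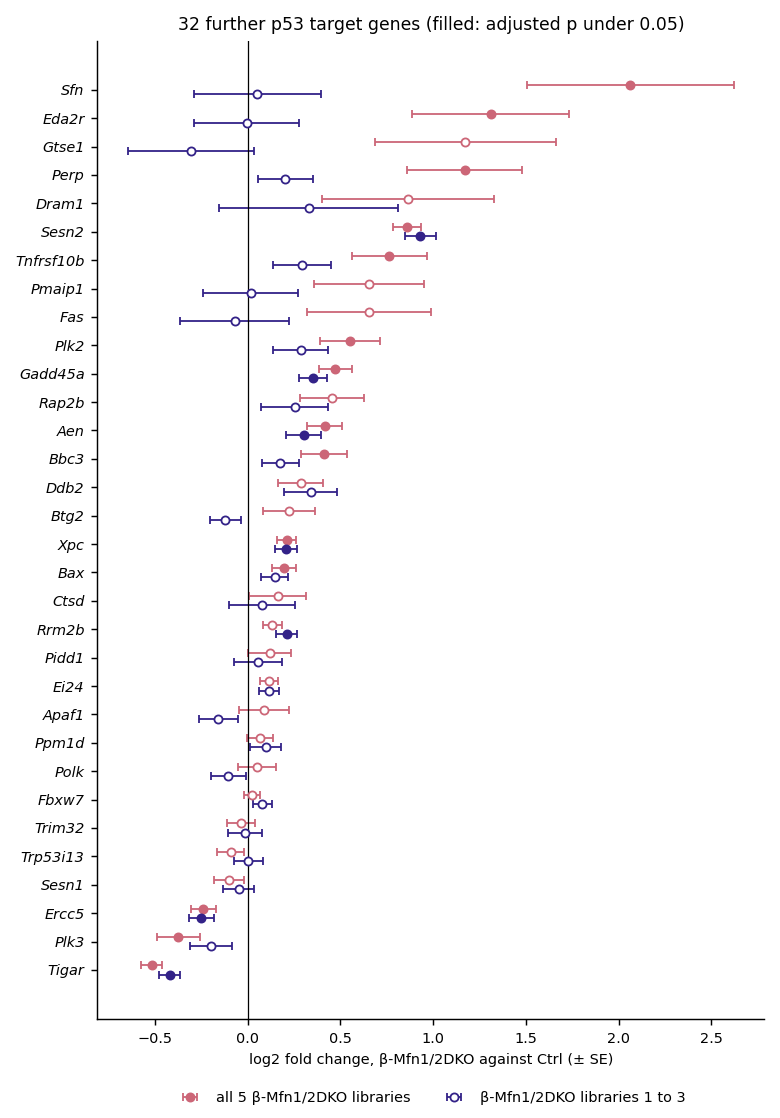
Log2 fold change in β-Mfn1/2DKO against Ctrl of 32 of the 33 further p53 target genes (points, with SE as bars), from all 5 β-Mfn1/2DKO libraries and from libraries 1 to 3; filled points have an adjusted p under 0.05. Sfn, Eda2r and Perp lie at 2.06, 1.31 and 1.17 with all libraries and at 0.05, -0.01 and 0.20 from libraries 1 to 3, while Sesn2 lies at 0.86 and 0.93.

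Of 18 measured regulators of p53, 3 were higher and 3 lower in β-Mfn1/2DKO, beside 9.59% and 6.86% of all genes. Their median was -0.03. Among the better measured ones (mean of 100 or more), Cop1 (0.28 ± 0.05, adjusted p = 0.00013) and Rchy1 (0.23 ± 0.05, adjusted p = 0.0019), both ubiquitin ligases for p53, were higher. Trp53bp1 (-0.30 ± 0.06, adjusted p = 0.0010), a scaffold at DNA breaks, and Prkdc (-0.27 ± 0.08, adjusted p = 0.030), the catalytic subunit of the DNA-dependent protein kinase, were lower. Cop1 read 2773 to 2978 in β-Mfn1/2DKO and 2250 to 2507 in Ctrl, and Trp53bp1 read 3627 to 4215 and 4545 to 5039. Mdm4, the partner of Mdm2, and Atm, the kinase that signals DNA breaks, stood at 0.20 ± 0.08 and -0.02 ± 0.07 (adjusted p = 0.093 and 0.86). Without libraries 4 and 5 of β-Mfn1/2DKO, 2 regulators were higher and 1 lower, beside 7.36% and 3.89% of all genes. Prkdc then stood at -0.28 ± 0.10 (adjusted p = 0.070), no smaller than with all libraries.

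Of the 4 remaining CDK inhibitor genes, 0 passed in edgeR, although Cdkn2c and Cdkn2d had an unadjusted p under 0.05 and DESeq2 called these 2. Cdkn1c and Cdkn2c stood at 0.07 ± 0.16 and -0.21 ± 0.09 (adjusted p = 0.82 and 0.14). Of 16 genes of the G1 cyclins, their kinases and the Rb and E2F families, 1 was higher and 4 were lower. The shares of all genes were 9.59% and 6.86%, and the median of the 16 was 0.01. Ccne2 (cyclin E2) fell by 0.70 ± 0.13 (adjusted p = 0.00054), Ccnd1 (cyclin D1) fell by 0.40 ± 0.08 (adjusted p = 0.0013) and E2f2 fell by 0.42 ± 0.14 (adjusted p = 0.047). E2f3 was higher by 0.52 ± 0.10 (adjusted p = 0.00044). Ccnd1 read 5794, 6013, 6645, 4967 and 5270 in β-Mfn1/2DKO and 6668, 7416 and 8542 in Ctrl. Ccnd2, the main D cyclin of β-cells, stood at -0.05 ± 0.07 (adjusted p = 0.71), and Ccnd3 at -0.14 ± 0.06 (adjusted p = 0.10). From β-Mfn1/2DKO libraries 1 to 3, 2 of the 16 were higher and 3 lower, beside 7.36% and 3.89% of all genes. E2f2 then stood at -0.27 ± 0.16 (adjusted p = 0.32).

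Genes of S phase and mitosis were scarce in these islets, with 7 of the 20 listed at a mean of 100 normalized counts or more. Of the 20, 2 were lower in β-Mfn1/2DKO, beside 6.86% of all genes, with a median of -0.16. When libraries 4 and 5 were left out 3 were lower, beside 3.89% of all genes, with a median of -0.66. Mcm2, a subunit of the replicative helicase, fell by 0.33 ± 0.07 (adjusted p = 0.0028), reading 647, 685, 663, 707 and 578 against 720, 849 and 913 in Ctrl. Mki67 and Top2a stood at -0.49 ± 0.39 and -0.69 ± 0.41 (adjusted p = 0.48 and 0.31), and their highest values were in Ctrl library 6 (209 and 218) and β-Mfn2KO library 5 (238 and 219). These 2 libraries also had the highest summed macrophage markers (630 and 863 CPM, at most 168 elsewhere) and stromal markers (334 and 362 CPM, at most 115 elsewhere), whose part in these values was not tested.

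The last list held 9 genes at or acting on the Cdkn2a locus, mostly subunits of the Polycomb complexes that keep it silent. In β-Mfn1/2DKO 4 of the 9 were higher, beside 9.59% of all genes, with a median of 0.15. These were Bmi1 (0.51 ± 0.07, adjusted p = 2.6e-05), Ezh2 (0.46 ± 0.13, adjusted p = 0.015), Cbx7 (0.28 ± 0.07, adjusted p = 0.0057) and Eed (0.18 ± 0.06, adjusted p = 0.022). Bmi1 read 4396, 4444, 4472, 4383 and 3245 in β-Mfn1/2DKO and 2648, 2955 and 3216 in Ctrl, without overlap. The same held in that direction for 6.56% of all genes. Suz12 and Ring1 stood at -0.00 ± 0.04 and 0.04 ± 0.05 (adjusted p = 1.0 and 0.65). Without libraries 4 and 5, 3 of the 9 were higher, beside 7.36% of all genes. Bmi1 then stood at 0.61 ± 0.06 (adjusted p = 4.1e-07), Ezh2 at 0.36 ± 0.14 (adjusted p = 0.12) and Eed at 0.17 ± 0.06 (adjusted p = 0.085).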

How the data were processed

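Islet RNA was sequenced as paired reads of 151 bases. The authors trimmed reads (cutadapt 2.3), checked them (FastQC 0.11.8), aligned them to GRCm38 (STAR 2.6.1b), estimated gene counts (RSEM 1.3.1) and removed genes at 0 in all samples; the strand setting and annotation release are not given in the sources used here. The deposited table of estimated counts holds whole numbers and was used as deposited. A second table of scaled counts was not used. Symbols came from GENCODE M21 (28579 of 28632 IDs). Counts were scaled by TMM and tested with edgeR 4.0.16 (quasi-likelihood, 1 fit of 20 libraries, Benjamini-Hochberg over 28632 genes, adjusted p under 0.05), and DESeq2 was an alternative. SE is the log2 fold change over the square root of F. The fits were tested on simulated data.

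Whether samples came from separate mice is not stated in the labels, so p-values measure the spread between samples. Intervals cover that spread and not sequence bias. The genes and lists were chosen with earlier results of these data known. Genes named from lists were up to 4 that passed with the largest change and a mean of 100 or more, and the first 2 that did not pass; Mfn1, Mfn2 and the 3 closest profiles per member were also named. Cdkn1a shares 273 exonic bases with a gene on the opposite strand whose mean was 15.4 counts. Trp53rk, a listed regulator, matched no ID. 1 gene of the list of further targets is counted in the list but not reported here.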

Additional observations from a re-analysis of the deposited data

Results flagged for a closer look

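Ccng1 was highest in library 1 of β-Mfn1KO, at 4843 normalized counts against 4130 to 4174 in the other 3, a gap wide for a group of 4. The ratio of the gap to the range was 0.94. It was 1 of 40 groups of libraries examined over the 10 genes, and the rule for a flag is met by chance in about 1 of 20 groups. The effect of Mfn1 loss differed with the state of Mfn2 for Trp53inp1, by 0.81 on the log2 scale (adjusted p = 0.018), and for Phlda3, by 1.49 (adjusted p = 0.033). The term for Trp53inp1 passed in 20 of 20 fits that each left out 1 library, and that for Phlda3 in 13 of 20. Phlda3 did not pass without Ctrl library 6, β-Mfn1KO library 1, 2 or 3, β-Mfn2KO library 1 or 2, or β-Mfn1/2DKO library 4.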

How the results depend on the processing

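Depth and genotype overlap in β-Mfn1/2DKO, libraries 4 and 5 of that group carry high acinar signal, and no fit separates these. Of 1490 values of single members under other settings, 1389 kept their side of the threshold, 81 lost the call and 20 gained one. None changed sign where either fit passed. Changes of sign where neither fit passed were not counted and did occur. Zmat3 in β-Mfn1/2DKO against Ctrl, for example, went from 0.17 to -0.02 without libraries 4 and 5. When the fit carried a term for depth class, 0 of the 10 members passed in β-Mfn1/2DKO against Ctrl, 0 against β-Mfn2KO, 1 against β-Mfn1KO and 0 in the interaction (edgeR), with 3 further targets, 0 regulators, 0 G1 genes, 1 proliferation gene and 1 Cdkn2a locus repressor. Of all 28632 genes, that fit called 728, 1683, 1235 and 911 in the same order of comparisons. With the acinar score as a covariate the members against Ctrl were 3, the interaction 0 and the further targets 9. The acinar fit called 4080 of all genes against Ctrl and 1293 in the interaction. Without β-Mfn1/2DKO libraries 4 and 5 the counts were 2 against Ctrl, 2 against β-Mfn2KO, 0 in the interaction, 8 further targets and 3 regulators. Settings added after seeing the data left out β-Mfn2KO library 4 as well (2, 1, 1, 8 and 3 in the same order), or left out the pair with sex as a covariate (2 against β-Mfn2KO and 8 further targets, while Phlda3 passed against Ctrl, adjusted p = 0.014). Without β-Mfn2KO library 4 and the pair, 3047 of all genes passed against Ctrl, 2046 against β-Mfn2KO and 943 in the interaction. Without the pair and with sex as a covariate, 3585 passed against Ctrl and 2764 against β-Mfn2KO. In deep libraries only, 0 members passed against β-Mfn2KO. Under total-count scaling the median of genes with a mean of 100 or more moved from 0.03 to 0.17 in β-Mfn1/2DKO against Ctrl, and 7 members passed against β-Mfn1KO, 4 in the interaction and 1 proliferation gene. Of all 28632 genes, 6650 passed against β-Mfn1KO under that scaling and 2292 in the interaction, where the main fit had 4971 and 1694. Against Ctrl 6342 passed. DESeq2 called 2 other CDK inhibitors and 4 proliferation genes, and DESeq2 size factors and a filter on low counts each called 1 CDK inhibitor. Against Ctrl these settings called 5866, 4669 and, of 15267 genes kept by the filter, 5369 genes. With counts drawn down to the smallest total, 1 proliferation gene and 2 repressors passed, beside 3899 of all genes. The cause of these moves was not tested.

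Leaving out each library in turn gave 4 to 6 members against Ctrl, 3 to 5 against β-Mfn2KO (3 without β-Mfn1/2DKO library 5), 3 to 5 against β-Mfn1KO, 0 in each single deletion, 1 to 3 in the interaction, 9 to 17 further targets (9 without β-Mfn1/2DKO library 5), 4 to 6 regulators, 0 to 1 CDK inhibitors, 4 to 6 G1 genes, 1 to 2 proliferation genes and 2 to 5 repressors (2 without β-Mfn1/2DKO library 5). Replicate numbers were not taken to pair the samples, since the labels give them no meaning and not every pair correlated: over 27 pairs with the same number the correlation of deviations ran from -0.10 to 0.58. Its mean was 0.25, against -0.05 for pairs with other numbers, and 10 of 20 libraries matched their own number best, a hint from the data and not from the design. With the replicate block 6 members passed against Ctrl, Ccng1 being added, and 1 proliferation gene passed, beside 4950 of 28632 genes. In the fits that left out 1 library, the count of all genes passing against Ctrl ran from 3850 (without β-Mfn1/2DKO library 4) to 4937 (without Ctrl library 6).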
